A study of Rattus norvegicus with 12 samples.

Results

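The natriuretic peptide system was examined in whole rat lung through its 3 peptide genes (Nppa, Nppb, Nppc) and its 3 receptor genes (Npr1, Npr2, Npr3). Every probe set on the array whose platform annotation carried 1 of these symbols was taken, which gave 6 of 31042 probe sets once array controls were set aside, with 1 probe set per gene. None of the 6 carried a further gene symbol, and all 6 symbols matched the rat RefSeq gene table by Entrez identifier. The comparison of the signalling receptors with the clearance receptor was part of the choice of genes.

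Atrial natriuretic peptide (Nppa) and B-type natriuretic peptide (Nppb) are hormones of the heart muscle, released when its walls are stretched. C-type natriuretic peptide (Nppc) is made mainly outside the heart, among other places in endothelium. Npr1 and Npr2 are receptors with a guanylyl cyclase domain: Npr1 answers to the A- and B-type peptides, Npr2 to the C-type peptide, and both raise cyclic GMP, which relaxes vascular smooth muscle. Npr3 lacks the cyclase domain, takes peptides into the cell for breakdown, and couples to inhibitory G proteins. In lung, the system is best known for lowering the tone of pulmonary vessels and for clearing peptide from the blood.

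The lungs came from male, age-matched Sprague-Dawley rats that were juvenile at surgery and were studied 9 weeks later, 3 rats in each of 4 groups, with 1 Affymetrix rat genome array per lung. CHF ketotifen rats had a clip placed around the aorta above the coronary arteries, which leads to congestive heart failure (CHF), and received the mast cell stabilizer ketotifen at 1 mg per kg per day in drinking water. CHF placebo rats had the clip without the drug. Sham ketotifen rats had the operation without a clip and the drug, and sham placebo rats had neither clip nor drug. The submitters' design text calls the banded rats without drug untreated, while the sample labels say placebo. Replicates were separate lungs, so that p-values measure the spread between these 12 lungs. In whole tissue, fewer cells of a type and less RNA per cell cannot be told apart.

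Values are log2 expression after GCRMA, in which a probe set without signal sits at about 2 to 3. Tests used limma over 16536 probe sets that reached a log2 value of 4 in at least 3 of the 12 arrays. A difference was called where its p, adjusted over all of them by Benjamini-Hochberg, was under 0.05. Of the 6 genes, 3 passed this filter, Npr1, Npr2 and Npr3.

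Several lungs stood apart over the whole array. CHF placebo lung 1 lay at 38.9 on the first principal component (45.7% of the variance), against 52.8 to 73.7 for the CHF ketotifen lungs and -4.14 and -12.2 for the other CHF placebo lungs. CHF ketotifen lungs 1 and 3 were the closest pair of arrays, with an SD of 0.26 for their log2 difference over probe sets against 0.40 for the next pair. Sham ketotifen lungs 1 and 2 and sham placebo lung 3 carried heart muscle transcripts: the mean log2 value of 17 cardiomyocyte markers (18 were listed) was 4.20, 6.87 and 5.94 there, and 2.42 to 2.56 in the other 9 lungs. The beta-actin 3' minus 5' difference, a sign of RNA quality, was 4.52 in lung 2 of the sham ketotifen group and 4.23 and 3.90 in sham placebo lungs 2 and 3, its 3 highest values. Markers of alveolar type 2 and type 1 cells were high in every lung, at means of 12.8 to 13.8 and 11.3 to 13.2.

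Short stretches upstream of 5 of the 6 genes are shown for core promoter words near the start. Each is the RefSeq sequence (build GRCr8) of bases -60 to -31 from the annotated start, written 5′ to 3′ on the gene's own strand. Capitals mark 3 words searched on both strands. The first was TATAAA. Another TATA-like word, able to overlap it, was ATAAAA. A GC box was searched as GGGCGG. The Nppb and Nppa windows lie on the plus strand of chromosome 5 at chr5:163699948-163699977 and chr5:163712124-163712153, with 0 other RefSeq genes annotated between these neighbours. The Npr1 (chr2:178247119-178247148), Npr3 (chr2:62658796-62658825) and Nppc (chr9:94772217-94772246) windows are on the minus strand.
Nppa: gttctcagggagctggggggcTATAAAAac
Nppb: caggATAAAAggcagaggcaccgttgctga
Nppc: ggcaggttggatTATAAAggctccagccca
Npr1: ccccCCGCCCgcctccggaacggccggaga
Npr3: cagggaggaaaggggcagggtgggtggggg
TATAAA began at position -39 of Nppa, where it overlaps ATAAAA, and at position -48 of Nppc. The Nppb window held ATAAAA from position -56. The capitals of Npr1 are GGGCGG read on the opposite strand. The Npr3 window held none of the 3 words, and no promoter sequence was found for Npr2. Outside these windows, Nppc also held GGGCGG, from position -81. Nppb also held TATAAA on the opposite strand, at position -208. Over the 250 bases before the start, TATAAA occurred in 12.9% of 33469 RefSeq rat promoters, ATAAAA in 18.6% and GGGCGG in 30.5%. These matches describe letters only.

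Probe sets of the peptide genes were at the bottom of the scale in every group. Nppa, the atrial peptide, read 2.10, 2.08 and 2.11 in CHF ketotifen lungs and 2.07, 2.07 and 2.37 in CHF placebo lungs. It read 2.08, 2.95 and 2.09 in sham ketotifen lungs and 2.07, 2.07 and 2.07 in sham placebo lungs. The highest value was sham ketotifen lung 2 and the next was CHF placebo lung 3, and the other 10 lungs lay within 2.07 to 2.11. Nppb, the B-type peptide, lay at 2.41 to 2.45 in CHF ketotifen lungs, 2.39 to 2.65 in CHF placebo lungs, 2.37 to 2.44 in sham ketotifen lungs and 2.36 to 2.42 in sham placebo lungs. Nppc, the C-type peptide, lay between 2.03 and 2.13 in all 12 lungs. For each peptide gene, 0 of 12 arrays reached 4. With no filter on dim probe sets, limma called 0 of the 3 peptide genes in the 7 comparisons, and 0 had an unadjusted p under 0.05. Their lowest adjusted p-values were 0.419 for Nppa, 0.382 for Nppb and 0.322 for Nppc. Whether these probe sets detect their transcripts was not tested, so a value at the bottom of the scale does not show that the transcript is absent.

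The 3 lungs with heart muscle transcripts did not share a raised Nppa. The heart muscle genes Myh6 and Myl7 read 9.01 and 8.29 in sham ketotifen lung 1, 11.4 and 11.3 in sham ketotifen lung 2, and 11.3 and 10.0 in sham placebo lung 3. In the other 9 lungs Myh6 was at most 3.48 and Myl7 at most 2.17. Nppa read 2.08, 2.95 and 2.07 in those 3 lungs, in the same order. Of the 17 cardiomyocyte markers 8 were over 1 log2 unit higher in each of the 3 lungs than in all of the other 9, and Myh7, Myl2 and Myl3, at 2.20 to 2.44, were at the bottom of the scale.

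**Figure D1:**
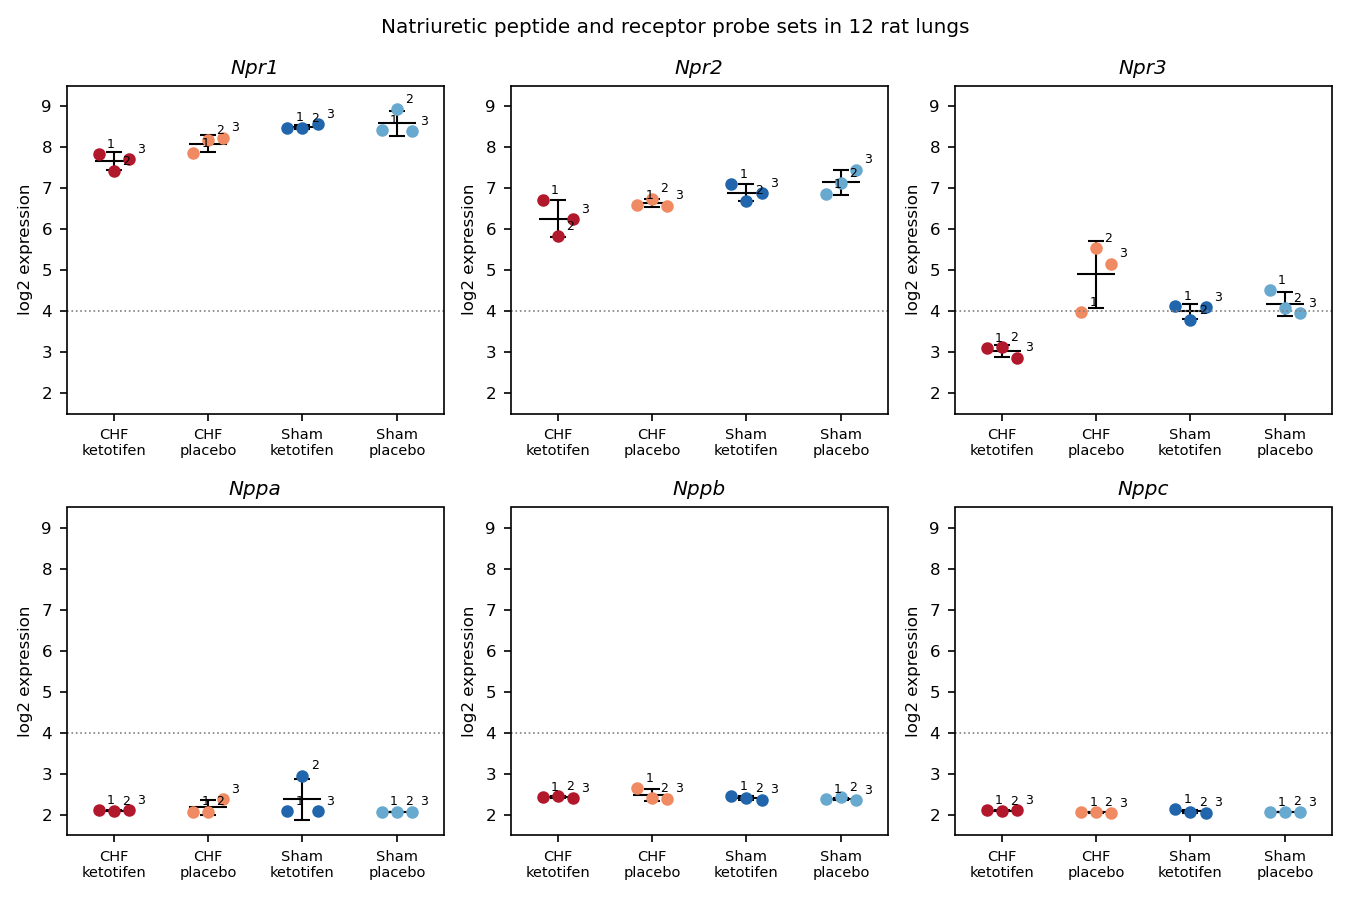
Log2 expression (y axis) of the 6 genes in the 4 groups, 1 point per lung, numbered by replicate, with group mean and SD (n = 3). The dotted line is the filter level of 4: Npr1 and Npr2 lie above it in all 12 lungs, the peptides below it in all 12, and Npr3 falls below it in all 3 CHF ketotifen lungs.

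Npr1, the receptor for the A- and B-type peptides, was lower in banded than in sham lungs on the average over both treatments. It read 7.84, 7.43 and 7.72 in CHF ketotifen lungs and 7.86, 8.17 and 8.24 in CHF placebo lungs. It read 8.48, 8.47 and 8.56 in sham ketotifen lungs and 8.42, 8.94 and 8.40 in sham placebo lungs. All 6 banded lungs lay below all 6 sham lungs, as they did for 1.49% of probe sets. The average surgery effect was -0.67 ± 0.13 (SE; adjusted p = 0.0079 in limma; 95% interval -0.95 to -0.39), a 1.59-fold lower level. In that comparison 21.0% of all probe sets tested were called, and 9.92% were called lower. The call was kept with any 1 of the 12 lungs left out.

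Within the arms the Npr1 difference was called under ketotifen and not under placebo. CHF ketotifen lungs averaged 7.66 ± 0.21 and sham ketotifen lungs 8.51 ± 0.05 (SD, n = 3 each), a difference of -0.84 ± 0.18 (SE; adjusted p = 0.0157). Here 13.0% of probe sets were called and 6.61% were called lower, while 20.8% had all 3 CHF ketotifen lungs below all 3 sham ketotifen lungs, as Npr1 did. Without CHF ketotifen lung 2 or sham ketotifen lung 3 the adjusted p was 0.0586 or 0.0504. CHF placebo lungs averaged 8.09 ± 0.20 and sham placebo lungs 8.59 ± 0.31, and the difference of -0.50 (95% interval -0.89 to -0.11) was not called, at an adjusted p of 0.169. These groups did not overlap either, which held downward for 10.7% of probe sets. The difference between the arms was itself not called, with an interaction of -0.34 (95% interval -0.90 to 0.21; adjusted p = 0.644).

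Ketotifen against placebo gave no called Npr1 difference. In banded rats the CHF ketotifen lungs lay below the CHF placebo lungs with no overlap, although lung 1 of each group read nearly the same. The difference was -0.43 (95% interval -0.82 to -0.03; adjusted p = 0.255), and 15.5% of probe sets had all 3 CHF ketotifen lungs lower. Sham ketotifen minus sham placebo was -0.08 (95% interval -0.47 to 0.31; adjusted p = 0.871), with overlapping groups. In order of level, CHF ketotifen was lowest, then CHF placebo, sham ketotifen and sham placebo. The first and last neighbouring pairs in that order did not differ in the test, and the middle pair, which differs in both surgery and drug, did not overlap and was not tested.

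Npr2, the receptor for the C-type peptide, was also lower in banded lungs, with a smaller margin. It read 6.71, 5.83 and 6.24 in CHF ketotifen lungs and 6.60, 6.75 and 6.58 in CHF placebo lungs. It read 7.11, 6.70 and 6.89 in sham ketotifen lungs and 6.86, 7.13 and 7.46 in sham placebo lungs. CHF placebo lungs lay below all sham placebo lungs, as they did for 10.7% of probe sets. CHF ketotifen lung 1, the highest of its group, lay just above sham ketotifen lung 2. The average surgery effect was -0.57 ± 0.16 (SE; adjusted p = 0.0326; 95% interval -0.93 to -0.21), a 1.49-fold lower level. This call was kept in 4 of 12 fits with 1 lung left out. It was lost without CHF ketotifen lung 2 or 3 (adjusted p = 0.0625 and 0.0623), CHF placebo lung 1 or 3 (0.0683 and 0.0548), sham ketotifen lung 1 or 3 (0.0662 and 0.0597) and sham placebo lung 2 or 3 (0.0574 and 0.0796).

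No comparison between 2 groups called Npr2. CHF ketotifen lungs averaged 6.26 ± 0.44 and sham ketotifen lungs 6.90 ± 0.20 (SD, n = 3 each), a difference of -0.64 (95% interval -1.15 to -0.13; adjusted p = 0.0902). CHF placebo lungs averaged 6.64 ± 0.09 and sham placebo lungs 7.15 ± 0.30, a difference of -0.51 (95% interval -1.02 to 0.0048; adjusted p = 0.253). The drug differences were -0.38 in banded and -0.25 in sham lungs, with adjusted p-values of 0.428 and 0.656, and the interaction was -0.13 (95% interval -0.85 to 0.59; adjusted p = 0.921). By mean level the groups stood in the same order as for Npr1, and no neighbouring pair that was tested differed beyond its spread.

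Markers of several cell types moved with surgery beside Npr1 and Npr2. Of 12 listed endothelial markers 11 were on the array, and all 11 passed the filter. Their mean log2 value was 10.22 to 10.72 in CHF ketotifen lungs, 10.38 to 11.02 in CHF placebo lungs, 11.04 to 11.28 in sham ketotifen lungs and 10.92 to 11.17 in sham placebo lungs. The 2 CHF groups lay lower on the whole, but CHF placebo overlapped sham placebo. Single endothelial markers went different ways in the average surgery effect: Kdr, Tek, Tie1, Vwf and Cldn5 fell (-1.33 to -0.72), Egfl7 and Emcn rose (1.05 and 0.61), and 4 of the 11 were not called. CHF placebo lung 1, at 10.38, was the lowest of its group both there and for Npr1.

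Other lists moved with surgery too. All 7 lung macrophage markers measured (8 were listed) rose with surgery, and their mean was 10.06 to 10.27 in CHF ketotifen lungs, 8.76 to 10.06 in CHF placebo lungs, 8.18 to 8.44 in sham ketotifen lungs and 6.88 to 8.44 in sham placebo lungs. CHF placebo lung 1, at 10.06, was the highest of its group. Both red cell markers that passed the filter rose, as did 6 of 8 mast cell markers, while 1 mast cell marker fell. Of the club cell markers 3 of 4 fell, and of the ciliated cell markers 4 of 5. Over all probe sets tested, 11.0% were called higher and 9.92% lower in the average surgery effect. The mean of the 4 red cell markers on the array was 5.77 to 5.98 in CHF ketotifen lungs, 5.43 to 7.41 in CHF placebo lungs, 4.43 to 5.05 in sham ketotifen lungs and 3.84 to 4.42 in sham placebo lungs. The mean of the 4 club cell markers was 5.54 to 6.73 in CHF ketotifen lungs, 6.27 to 8.99 in CHF placebo lungs, 7.69 to 10.94 in sham ketotifen lungs and 8.02 to 12.04 in sham placebo lungs. These shifts stand beside the surgery differences of the pathway genes given further on as well.

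The actin 3' minus 5' difference was 2.90 to 3.41 in CHF ketotifen lungs, 3.01 to 3.40 in CHF placebo lungs, 2.91 to 4.52 in sham ketotifen lungs and 3.45 to 4.23 in sham placebo lungs. Sham placebo lungs lay above all banded lungs, and sham ketotifen lungs overlapped them. Without the 3 lungs that held heart muscle transcripts the average surgery effect was -0.74 for Npr1 and -0.49 for Npr2. Without the 3 lungs of largest actin 3' minus 5' difference it was -0.59 and -0.47. Neither receptor was called in these fits. They left 1 sham ketotifen or 1 sham placebo lung, too few to decide whether the calls depend on the lungs left out. The part of cell content and RNA quality in these differences was not tested.

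Npr3, the clearance receptor, was the 1 receptor called for ketotifen in banded rats. It read 3.11, 3.12 and 2.87 in CHF ketotifen lungs and 3.98, 5.55 and 5.16 in CHF placebo lungs. It read 4.12, 3.79 and 4.09 in sham ketotifen lungs and 4.52, 4.07 and 3.96 in sham placebo lungs. CHF ketotifen lungs were the lowest 3 of the 12, CHF placebo lungs 2 and 3 the highest, and CHF placebo lung 1 lay among the sham lungs. For 15.5% of probe sets all 3 CHF ketotifen lungs lay below all 3 CHF placebo lungs. Group means were 3.03 ± 0.14 in CHF ketotifen lungs, 4.90 ± 0.82 in CHF placebo lungs, 4.0 ± 0.18 in sham ketotifen lungs and 4.18 ± 0.29 in sham placebo lungs (SD, n = 3 each).

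The CHF ketotifen minus CHF placebo difference of Npr3 was -1.87 ± 0.34 (SE; adjusted p = 0.0272; 95% interval -2.62 to -1.11). In this comparison 1.22% of all probe sets tested were called, and 0.393% of all probe sets tested were called lower. Because all 3 CHF ketotifen lungs were under 4, where the scale flattens, the fitted 3.64-fold is uncertain in size. With values under 4 set to 4, CHF ketotifen lungs had a mean of 4.0 and CHF placebo lungs 4.90, a 1.87-fold lower level under ketotifen. That fold is an estimate from these lungs, without an interval. The call was kept in 7 of 12 fits with 1 lung left out. It was lost without CHF ketotifen lung 1, 2 or 3 (adjusted p = 0.0789, 0.0742 and 0.101) and without CHF placebo lung 2 or 3 (0.121 and 0.133). Leaving out CHF placebo lung 1, the lung that stood near the CHF ketotifen lungs, gave an adjusted p of 0.000528. With CHF ketotifen lungs 1 and 3 averaged into 1 sample it was 0.0967, and with only these 2 groups in the fit 0.138.

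Elsewhere Npr3 was not called. CHF placebo minus sham placebo was 0.71 (95% interval -0.04 to 1.47; adjusted p = 0.272), with overlap, since CHF placebo lung 1 read close to the lowest sham placebo lung. CHF ketotifen minus sham ketotifen was -0.97 (95% interval -1.72 to -0.22; adjusted p = 0.0819), with no overlap. Such a separation downward held for 20.8% of probe sets. Sham ketotifen minus sham placebo was -0.18 (95% interval -0.93 to 0.57; adjusted p = 0.848). The signs of the surgery difference thus ran opposite ways in the 2 arms, and the average surgery effect was -0.13 (adjusted p = 0.724). With values under 4 set to 4, CHF ketotifen minus sham ketotifen was -0.07 and sham ketotifen minus sham placebo -0.13, CHF placebo minus sham placebo stayed at 0.71, and the average surgery effect was 0.32. Most of the fitted difference between CHF ketotifen and sham ketotifen lungs thus lay under 4, and its size is uncertain.

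The interaction, which asks whether ketotifen changed Npr3 by a different amount in banded than in sham lungs, was -1.68 ± 0.48 (SE; unadjusted p = 0.00516, adjusted p = 0.238). In that comparison 0.369% of probe sets were called. Averaged over banded and sham rats the ketotifen effect was -1.02 (adjusted p = 0.0630), where 1.49% of probe sets were called. Without CHF placebo lung 1 both passed, the interaction at -2.14 (adjusted p = 0.00855) and the average ketotifen effect at -1.25 (adjusted p = 0.00326). CHF ketotifen minus sham ketotifen, which does not use that lung, then passed at an adjusted p of 0.012. Its difference stayed at -0.97, or -0.07 with values under 4 set to 4, so the lower p came without a larger difference. In the other 11 of 12 fits with 1 lung left out, none of these Npr3 differences passed. With values under 4 set to 4, the interaction was -0.78 and the average ketotifen effect -0.51 with all 12 lungs, and -1.23 and -0.74 without CHF placebo lung 1, so the sizes of these effects are uncertain too. By level, CHF ketotifen was lowest, then sham ketotifen, sham placebo and CHF placebo. No neighbouring pair in that order differed in the test with all 12 lungs.

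**Figure D2:**
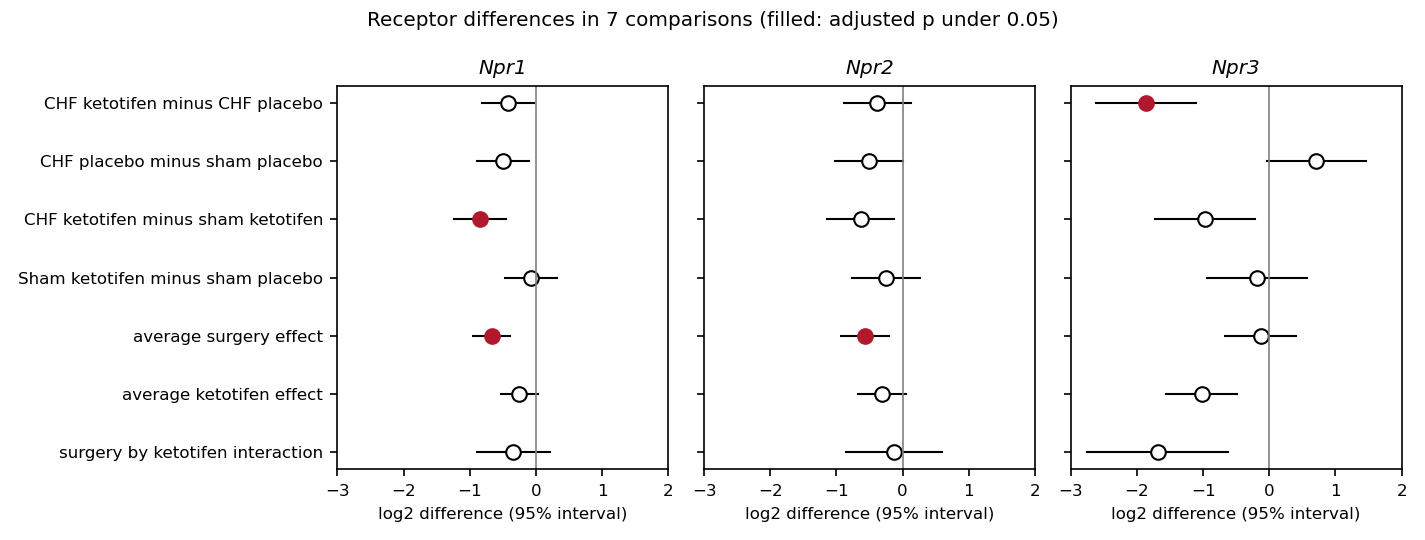
Log2 differences (x axis) of Npr1, Npr2 and Npr3 in the 7 comparisons, with 95% intervals from limma; filled points had an adjusted p under 0.05. Called differences are Npr1 for CHF ketotifen minus sham ketotifen (-0.84) and the average surgery effect (-0.67), Npr2 for the average surgery effect (-0.57), and Npr3 for CHF ketotifen minus CHF placebo (-1.87).

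Counted by comparison, 1 of 3 receptors was called in CHF ketotifen minus CHF placebo, where 1.22% of probe sets were called. In CHF ketotifen minus sham ketotifen it was 1 of 3 (13.0% of probe sets), and in the average surgery effect 2 of 3 (21.0%). limma called 0 of 3 in CHF placebo minus sham placebo (0.169%) and 0 of 3 in sham ketotifen minus sham placebo (0.0847%). It called 0 of 3 for the average ketotifen effect (1.49%) and for the interaction (0.369%). At an unadjusted p under 0.05 stood 1 receptor in CHF placebo minus sham placebo and 0 in sham ketotifen minus sham placebo. Of all 16536 probe sets tested, 3326 and 2310 were under that level there. Npr3 was the 1 receptor under it for the average ketotifen effect and for the interaction, beside 3368 and 1778 probe sets. These comparisons share groups, so their counts are not separate pieces of evidence.

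**Figure D3:**
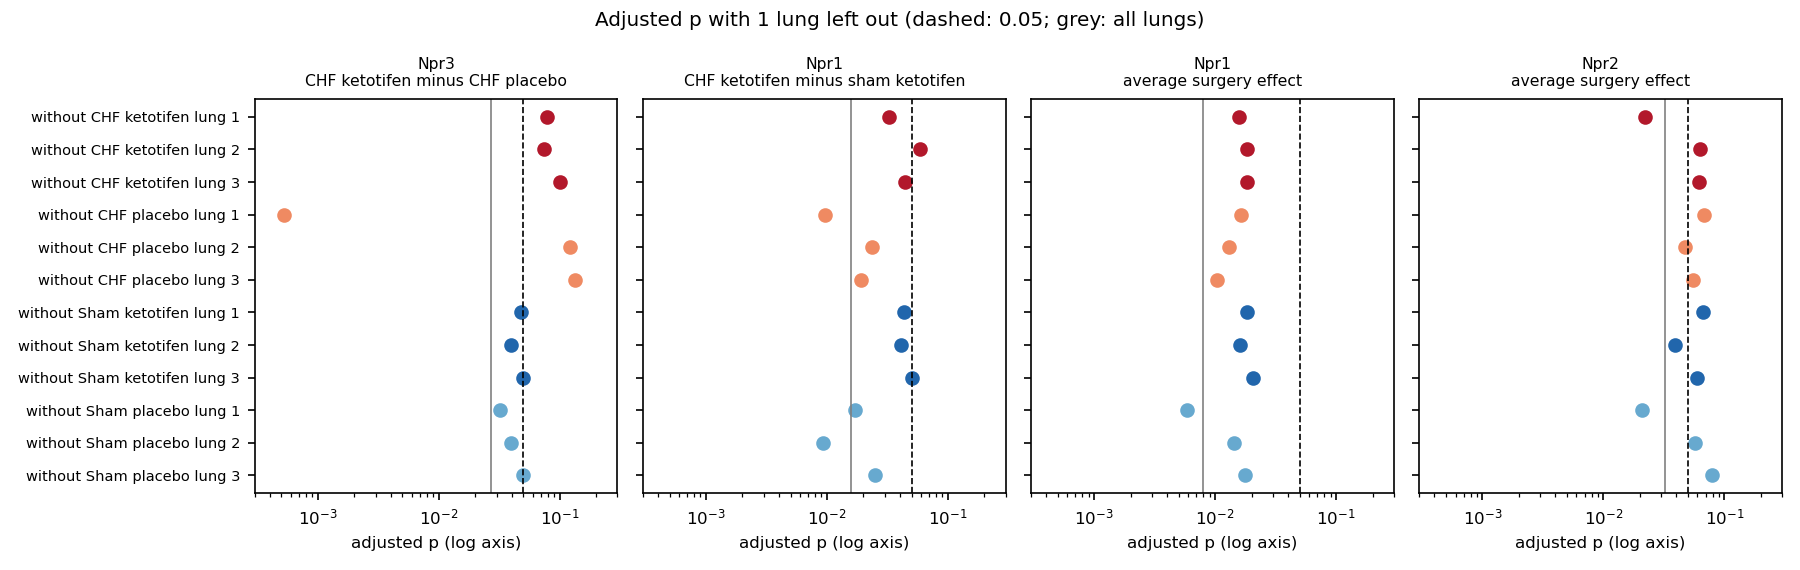
Adjusted p (x axis, log scale) of the 4 called receptor differences with each lung left out in turn (y axis); the dashed line is 0.05 and the grey line the value with all 12 lungs. Npr1 for the average surgery effect stays left of the dashed line in 12 of 12 fits, Npr1 for CHF ketotifen minus sham ketotifen in 10, Npr3 in 7 and Npr2 in 4.

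The signalling receptors were then set against the clearance receptor within each lung, as the log2 value of Npr1 or Npr2 minus that of Npr3. Since levels of different probe sets cannot be compared, only changes of this difference between groups carry meaning. For Npr1 minus Npr3 it was 4.74, 4.31 and 4.85 in CHF ketotifen lungs, 3.88, 2.62 and 3.07 in CHF placebo lungs, 4.36, 4.68 and 4.47 in sham ketotifen lungs and 3.90, 4.87 and 4.44 in sham placebo lungs. The 3 CHF placebo lungs were the lowest of the 12, and the other groups overlapped one another.

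For Npr2 minus Npr3 the values were 3.61, 2.71 and 3.38 in CHF ketotifen lungs, 2.62, 1.20 and 1.42 in CHF placebo lungs, 2.99, 2.91 and 2.79 in sham ketotifen lungs and 2.34, 3.06 and 3.50 in sham placebo lungs. CHF placebo lungs 2 and 3 were lowest, and CHF placebo lung 1 lay within the sham placebo range. Under exact two-sided permutation tests, of which 12 were made, none passed after Benjamini-Hochberg adjustment, the lowest adjusted p being 0.3. With 3 lungs against 3 the exact test cannot go below 0.1.

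In banded rats the drug difference was 1.44 for Npr1 minus Npr3 and 1.48 for Npr2 minus Npr3 (exact p = 0.1 each). CHF placebo minus sham placebo was -1.21 (exact p = 0.1) and -1.22 (exact p = 0.2), while CHF ketotifen minus sham ketotifen was 0.13 (exact p = 0.5) and 0.34 (exact p = 0.4). Over both arms, with labels permuted within each arm, the surgery change was -0.54 for Npr1 (exact p = 0.15) and -0.44 for Npr2 (exact p = 0.29), where the smallest possible p is 0.005. Ketotifen over both surgical groups gave 0.77 (exact p = 0.05, adjusted 0.3) and 0.71 (exact p = 0.125). With Npr3 values under 4 set to 4, the drug difference in banded rats was 0.48 for Npr1 and 0.52 for Npr2, and ketotifen over both surgical groups gave 0.26 and 0.20. On that scale CHF ketotifen minus sham ketotifen turned to -0.77 and -0.56, CHF placebo minus sham placebo was -1.20 and -1.21, and surgery over both arms gave -0.99 and -0.89. The separation of CHF ketotifen from CHF placebo lungs in this measure thus rested largely on Npr3 values under 4.

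**Figure D4:**
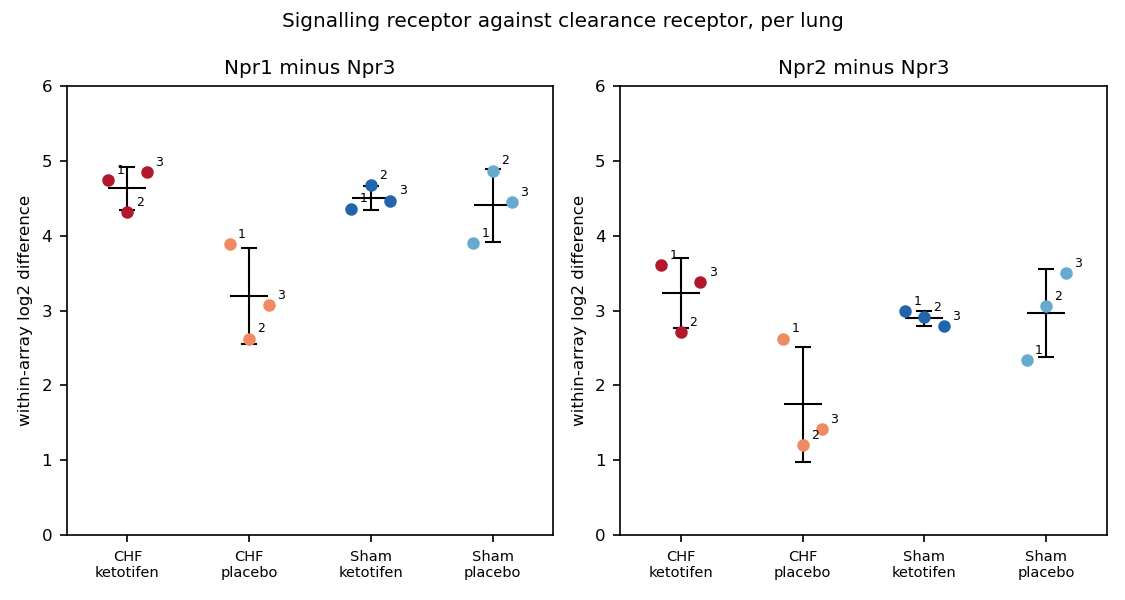
Within-array log2 difference (y axis) of Npr1 minus Npr3 and Npr2 minus Npr3, 1 point per lung, with group mean and SD (n = 3). CHF placebo means of 3.19 and 1.75 lie below the CHF ketotifen means of 4.63 and 3.23, the sham ketotifen means of 4.50 and 2.90, and the sham placebo means of 4.40 and 2.97.

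Over the 12 lungs Npr1 and Npr2 followed each other (Pearson r = 0.81), while Npr3 followed neither closely (r = 0.46 with Npr1 and 0.37 with Npr2). These coefficients describe 12 arrays in 4 groups and share the group differences. The genes whose values ran most alike with Npr1 were Prr12 (r = 0.97), Amotl1 (0.965), Tspan13, Cenpv and Spen (0.96 each). For Npr2 they were Gle1, Usp21, Rapgef3, Pigq and Zranb2, with r between 0.93 and 0.94. An absolute r over 0.8 was reached by 14.9% of the probe sets tested with Npr1, by 5.89% with Npr2 and by 0.472% with Npr3.

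Npr3 ran most like Pgrmc2 (r = 0.93), Mrpl40 and Esm1 (0.91 each), Pdrg1 (0.90) and Taf3 (0.89). Esm1, which encodes a proteoglycan secreted by endothelial cells, read 7.55, 7.48 and 7.23 in CHF ketotifen lungs and 9.25, 10.29 and 11.03 in CHF placebo lungs. In sham ketotifen lungs it read 9.86, 9.29 and 9.26, and in sham placebo lungs 9.04, 9.35 and 9.13. The CHF ketotifen lungs were the lowest 3 and CHF placebo lungs 2 and 3 the highest. Esm1 was picked for its likeness to Npr3, which fixes much of this pattern, and Pgrmc2, closer by r, had sham placebo lung 2 at 9.40, below CHF ketotifen lungs 1 and 3 at 9.42 and 9.47.

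The rest of the pathway was followed through 5 lists with 50 symbols, of which 42 were on the array and 23 passed the filter. limma called 3 of the 23 higher and 1 lower in CHF ketotifen minus sham ketotifen, and 3 higher and 2 lower in the average surgery effect. Over all probe sets these shares were 6.36% higher and 6.61% lower in the first and 11.0% higher and 9.92% lower in the second. In the other 5 comparisons 0 were called, with 3 to 6 of the 23 at an unadjusted p under 0.05. Of all 16536 probe sets tested, 1778 to 3368 were under that level in the same comparisons. The median log2 difference of the 23 was -0.26 in CHF ketotifen minus sham ketotifen and -0.19 in the average surgery effect, where all probe sets had medians of -0.03 and -0.02.

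Among targets of cyclic GMP-dependent kinase, 2 of 5 tested genes were called higher in the average surgery effect. Over all probe sets that share was 11.0%. Rgs2, a regulator of G protein signalling that the kinase activates, read 11.44, 10.97 and 11.44 in CHF ketotifen lungs and 9.98, 10.15 and 10.88 in CHF placebo lungs, against 9.79, 10.37 and 9.92 in sham ketotifen lungs and 9.88, 10.09 and 10.30 in sham placebo lungs. CHF ketotifen lungs stood above all others, and CHF placebo overlapped sham placebo, with a difference of 0.25 that was not called (adjusted p = 0.606). The differences were 1.26 ± 0.25 in CHF ketotifen minus sham ketotifen (SE; adjusted p = 0.0124) and 0.75 ± 0.17 on average (adjusted p = 0.0161), each kept in 12 of 12 fits with 1 lung left out. A second Rgs2 probe set was called in both comparisons as well, at 1.45 and 1.14. In CHF placebo minus sham placebo it had 0.82 and was not called (adjusted p = 0.165).

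Vasp, an actin-binding protein that the kinase phosphorylates, read 11.23, 11.82 and 11.16 in CHF ketotifen lungs, 11.25, 10.33 and 10.42 in CHF placebo lungs, 10.36, 10.36 and 10.46 in sham ketotifen lungs and 10.22, 10.14 and 10.03 in sham placebo lungs. CHF placebo lung 1 read like the CHF ketotifen lungs, and the other CHF placebo lungs lay within the range of the sham lungs. CHF placebo minus sham placebo was 0.54 and was not called (adjusted p = 0.235). The average surgery effect was 0.77 ± 0.17 (SE; adjusted p = 0.0122; kept in 12 of 12 fits) and CHF ketotifen minus sham ketotifen was 1.01 ± 0.24 (adjusted p = 0.022; kept in 8 of 12). Irag1, Ppp1r12a and Pln, other kinase targets, had average surgery effects of -0.39, -0.19 and -0.30 and were not called. The kinase gene Prkg2 did not pass the filter, and no probe set carried the symbol Prkg1.

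Phosphodiesterases break down cyclic nucleotides. Of the 5 genes tested that carry a phosphodiesterase symbol, Pde3b was called higher with surgery, as were 11.0% of all probe sets. This enzyme, which cyclic GMP inhibits, read 6.22, 6.32 and 6.37 in CHF ketotifen lungs, 6.21, 5.64 and 5.85 in CHF placebo lungs, 5.53, 5.51 and 5.47 in sham ketotifen lungs and 5.60, 4.45 and 5.19 in sham placebo lungs. All 6 banded lungs lay above all 6 sham lungs, as they did for 2.65% of probe sets. The average surgery effect was 0.81 ± 0.18 (SE; adjusted p = 0.0149), kept in 12 of 12 fits with 1 lung left out. Pde5a, the cyclic GMP-specific enzyme that sildenafil inhibits, had an average surgery effect of 0.65 ± 0.43 (SE, adjusted p = 0.284). Its means of 3.95 in sham ketotifen and 3.20 in sham placebo lungs were under 4, so the size of this difference is uncertain. Pde2a and Pde9a had average surgery effects of -0.09 and -0.19.

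Among 6 enzymes that process or break down the peptides, Dpp4 and Ece1 were called lower in the average surgery effect. Over all probe sets the share called lower was 9.92%. Dpp4, a dipeptidyl peptidase that trims the B-type peptide, read 8.76, 8.11 and 8.71 in CHF ketotifen lungs, 8.64, 9.68 and 9.93 in CHF placebo lungs, 10.32, 9.85 and 10.05 in sham ketotifen lungs and 9.64, 9.08 and 9.59 in sham placebo lungs. It differed by -1.55 ± 0.31 in CHF ketotifen minus sham ketotifen (SE; adjusted p = 0.0142; kept in 11 of 12 fits) and by -0.78 ± 0.22 on average (adjusted p = 0.0313; kept in 8 of 12). CHF placebo minus sham placebo was -0.02 (adjusted p = 0.981), and the interaction of -1.53 was not called (adjusted p = 0.247). CHF placebo lung 1 again read like the CHF ketotifen lungs, and the other CHF placebo lungs lay above every sham placebo lung.

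Ece1, better known for making endothelin, had an average surgery effect of -0.59 ± 0.16 (SE; adjusted p = 0.0275; kept in 6 of 12 fits). It read 9.10, 9.14 and 9.13 in CHF ketotifen lungs, 8.99, 9.85 and 10.10 in CHF placebo lungs, 10.06, 9.77 and 9.81 in sham ketotifen lungs and 10.06, 10.07 and 10.08 in sham placebo lungs. Furin, a convertase of peptide precursors, had 0.49 ± 0.15 in CHF ketotifen minus sham ketotifen (SE; adjusted p = 0.0494), and this was kept in 1 of 12 fits. Mme, the neprilysin gene, whose enzyme degrades natriuretic peptides, had -0.20 ± 0.18 for the average surgery effect (SE; adjusted p = 0.453). Ide, another degrading enzyme, had -0.19 ± 0.10 (SE, adjusted p = 0.194) at its brightest probe set. Its other probe sets went the other way, at 0.60 and 0.18, and were not called (adjusted p = 0.145 and 0.360).

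**Figure D5:**
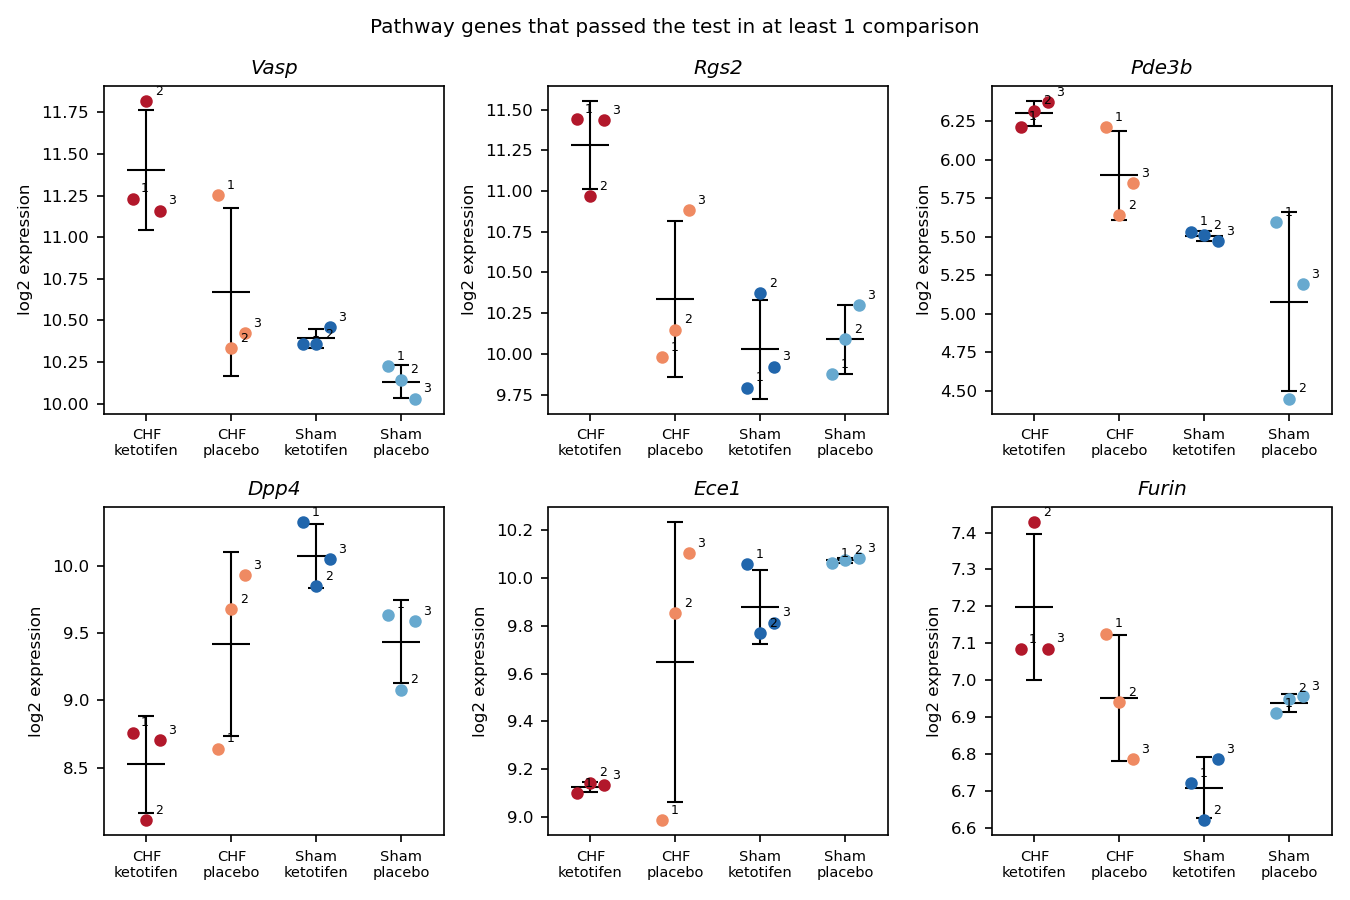
Log2 expression (y axis, scaled to each gene and not starting at 0) of the 6 pathway genes called in at least 1 comparison, 1 point per lung, with group mean and SD (n = 3). In Vasp, Dpp4 and Ece1, CHF placebo lung 1 lies near the CHF ketotifen lungs, away from CHF placebo lungs 2 and 3.

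The other lists held 0 called genes in the 7 comparisons. For soluble guanylyl cyclase, the receptor of nitric oxide, Gucy1a1 had -0.33 and Gucy1b1 0.24 in CHF ketotifen minus CHF placebo (adjusted p = 0.425 and 0.624), and -0.08 and 0.17 for the average surgery effect. A second Gucy1a1 probe set had 0.22 for that effect (adjusted p = 0.454), opposite in sign, and 0.93 in CHF placebo minus sham placebo (adjusted p = 0.131). Its interaction was -1.44 (adjusted p = 0.219). Nos3, endothelial nitric oxide synthase, had an average surgery effect of -0.59 ± 0.31 (SE, adjusted p = 0.188). Its means of 3.57 in CHF ketotifen and 3.55 in CHF placebo lungs were under 4, so the size of this difference is uncertain. Of the inhibitory signalling genes tied to Npr3, Gnai1 had -0.85 ± 0.49, Gnai2 -0.32 ± 0.20, Plcb3 -0.25 ± 0.17 and Adcy6 -0.29 ± 0.15 in CHF ketotifen minus CHF placebo (SE; adjusted p between 0.332 and 0.481). A second Adcy6 probe set had 0.08 in that comparison (adjusted p = 0.879). Without the 3 lungs that held heart muscle transcripts, the pathway calls named here were all lost, while the differences kept their sign. Calls over all probe sets fell steeply in that fit as well. It left 1 sham ketotifen lung, too few to decide whether the calls depend on the lungs left out.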

How the data were processed

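The authors deposited 1 table of log2 expression values for 12 whole-lung arrays, and the submitters' processing notes name GCRMA and R 2.5.0. GCRMA corrects background by probe sequence, normalizes arrays to each other and summarizes probe sets, so values flatten near background. GCRMA settings and detection calls were not given in the sources used, and the number of arrays limits precision. Of 31099 probe sets, 57 controls were left out. Symbols came from the platform annotation (20826 probe sets had 1, 436 several, 9780 none). Groups came from the source names in the labels, which give no batch.

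A group-means model was fitted with limma 3.58.1 (R 4.3.3) to all 12 arrays, over 16536 probe sets with a log2 value of at least 4 in at least 3 arrays, with an intensity trend, 8 residual degrees of freedom (median 10.95 after moderation), two-sided tests and Benjamini-Hochberg adjustment. The same fit gave 4 comparisons of 2 groups, the average surgery effect, the average ketotifen effect and their interaction. The fit and the exact permutation code were tested on simulated data. Receptor differences within arrays used exact permutation tests in Python 3.11.15. Named were all 6 genes, pathway genes called or of smallest p in their list (1 probe set per gene, the brightest), and the 5 genes of highest Pearson r per receptor. The genes, lists and alternatives were chosen with earlier results of these data known. Alternatives changed the filter, variance model, normalization, array weights, groups in the fit, a replicate block and lungs left out. Of 15 marker lists, those with most tested members called for surgery, and those that check the tissue, are given. Promoter sequences were found for 5 of the 6 genes.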

Additional observations from a re-analysis of the deposited data

How the results depend on the processing

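The receptor calls rested on few lungs and on a dim Npr3 signal. CHF ketotifen minus CHF placebo, with 1 receptor called, had 0 with no filter, a filter at 5 (where Npr3 was not tested), only the 2 groups in the fit, CHF ketotifen lungs 1 and 3 averaged, without the 3 lungs of heart muscle signal or without the 3 of largest actin difference, 2 with array weights, and 0 to 1 with 1 lung left out. The adjusted p of Npr3 there was 0.0549 with no filter, 0.133 without the heart muscle lungs and 0.0732 without the actin lungs. CHF placebo minus sham placebo, with 0 called, had 2 with array weights. Array weights raised the calls over all 16536 probe sets as well, there from 28 to 3236. In CHF ketotifen minus CHF placebo they rose from 201 to 4134, and they rose in every other comparison too. CHF ketotifen minus sham ketotifen, with 1 called, had 2 with array weights and with only the 2 groups in the fit, 0 without the heart muscle lungs (Npr1 at an adjusted p of 0.225), and 0 to 2 with 1 lung left out. The average surgery effect, with 2 called, had 1 with no filter, 0 without the heart muscle lungs or the actin lungs, and 1 to 2 with 1 lung left out. The average ketotifen effect and the interaction, each with 0 called, had 1 with array weights and 0 to 1 with 1 lung left out. Leaving out CHF placebo lung 1 and sham placebo lungs 2 and 3, which stood apart on the first principal component, was chosen after seeing the data: it gave 2 calls in CHF ketotifen minus sham ketotifen, 0 for the average surgery effect (Npr1 -0.53, adjusted p = 0.0637; Npr2 -0.41, adjusted p = 0.322) and 1 for the average ketotifen effect. The fits without several lungs left some groups with 1 lung, assumed to vary like the others.

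Signs turned only in differences that were not called with all lungs. Sham ketotifen minus sham placebo became 0.065 for Npr1 and 0.011 for Npr3 with array weights, 0.11 for Npr1 and 0.14 for Npr2 without the actin lungs, 0.090 and 0.042 without the 3 lungs chosen after seeing the data, and for Npr1 0.096 without sham placebo lung 2 (range with 1 lung left out -0.17 to 0.096). The average surgery effect of Npr3 became 0.11 with array weights and 0.10 without CHF placebo lung 1 (range -0.29 to 0.10). The interaction of Npr2 became 0.17 with array weights, 0.086 without CHF ketotifen lung 2 and 0.016 without sham placebo lung 1 (range -0.36 to 0.086). The causes were not tested. Quantile normalization and median centring changed no receptor call. The change of Npr1 minus Npr3 with surgery over both arms lay between -0.71 and -0.40 with 1 lung left out, and that of Npr2 minus Npr3 between -0.66 and -0.31.

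Replicate numbers did not pair the lungs: same-numbered lungs correlated at -0.35 to 0.26 in their deviations from the group means, 5 of 18 pairs were over 0.1, and 4 of 12 lungs correlated best with their own number. With the number as a replicate block, 0 receptors were called in CHF ketotifen minus CHF placebo (Npr3 at an adjusted p of 0.0605), and no other receptor call changed. Over all probe sets, counts of calls moved by over 1.5 times: 201 with all lungs and 60 to 4134 under the alternatives for CHF ketotifen minus CHF placebo, 28 and 0 to 3236 for CHF placebo minus sham placebo, 2145 and 43 to 4139 for CHF ketotifen minus sham ketotifen, 14 and 0 to 722 for sham ketotifen minus sham placebo, 3467 and 60 to 6069 for the average surgery effect, 247 and 11 to 3793 for the average ketotifen effect, and 61 and 2 to 1132 for the interaction. The highest counts came with array weights, except for sham ketotifen minus sham placebo, where it came without sham placebo lung 1. limma's array weights ranged over 0.377 to 3.72.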
